A study of Mus musculus with 142 samples.

Results

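Imprinted genes are transcribed mainly from the copy inherited from one parent. The genes described here are 40 imprinted genes outside the Asb4, Zdbf2 and H19/Igf2 loci, listed by name and grouped into 17 imprinted loci and by the parental copy that is expressed in mouse. No measured value entered the list, although it was drawn up with earlier results of these data known. Of the 40, 21 are classed as expressed from the paternal copy and 12 from the maternal copy. For 4 the copy depends on the transcript, and for 3 on the tissue. These classes were assigned with the list, and whether each holds in the cells used here was not examined. The series held counts for 47665 genes, of which 23006 passed the filter on low counts. The filter kept 38 of the 40 genes. The other 2, Phlda2, a placental growth regulator, and Slc22a18, a transporter-like protein, had 47 and 75 counts over all libraries and were not tested.

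The libraries came from cultures of oligodendrocyte precursor cells (OPCs), the dividing cells that give rise to myelinating oligodendrocytes. OPCs were panned with an antibody to PDGFRa from brainstem or dorsal telencephalon of pooled litters of early postnatal mouse pups in an FVB background. K27M pups carried hGFAP-Cre (AMGFAP-Cre in the labels) and a Cre-activated lysine-to-methionine allele of H3f3a (H3-3a), the gene of the histone variant H3.3. Control pups were their littermates. The study describes its littermate controls as lacking Cre, with 1 H3f3a allele expressed because of the stop cassette that Cre removes. The mutation, Cre and the number of expressed H3f3a alleles therefore cannot be told apart. Cre was driven by the human GFAP promoter, which is active in neural stem and progenitor cells. Cells were taken in proliferation medium (day 0: PDGF, NT-3, CNTF and forskolin) or after 1, 2 or 5 days in differentiation medium (thyroid hormone, CNTF and forskolin). Each region and genotype had 3 cultures, numbered 38, 41 and 42, and each of the 16 groups had 8 or 9 wells from them. The inbred background gave no allelic information, so every value below is a total over both parental copies.

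Libraries held 26.6 to 455 M counted read pairs (M, in units of 1e6, median 46.9 M). The 455 M library was a day 5 well of brainstem control culture 38. H3f3a was at 359 to 765 counts per 1 M read pairs (CPM, relative to the TMM-scaled library size) in K27M libraries, against 148 to 545 CPM in control libraries. The study put the H3f3a difference down to the stop cassette, with 1 allele expressed in controls. It put the protamine gene Prm1, at 33.8 to 129 CPM in K27M libraries against 6 counts over all control libraries, down to the Cre transgene. Pdgfra, Olig2, Mbp and the other OPC and oligodendrocyte markers were present in every group. Neuron markers (12 genes) summed to 49.8 to 498 CPM, microglia markers (8 genes) to 12.2 to 37.6 CPM and vascular and fibroblast markers (10 genes) to 0.295 to 43.7 CPM per culture. At day 2 neuron markers summed to 96.6 to 115 CPM in brainstem K27M cultures and 60.7 to 79.6 CPM in brainstem control cultures. In telencephalon K27M and control they summed to 87.7 to 95.3 and 54.1 to 65.3 CPM at day 2. At telencephalon day 1 they were at 91.2 to 102 CPM in K27M and 49.8 to 87.2 CPM in control. On the other days of each region the ranges of K27M and control overlapped. The part of neuron markers in imprinted gene levels was not tested. At day 5, 6 brainstem control wells, those of cultures 41 and 42, had 24905 to 33752 detected genes, and the other 30 wells had 22726 to 29299. Mean passage was 3.83 in brainstem K27M wells and 5.51 in brainstem control wells, and 2.11 in telencephalon K27M wells and 2.14 in telencephalon control wells. The labels also number a batch, without saying of what: culture 38 was batch 3 in brainstem and batch 1 in telencephalon, and cultures 41 and 42 were batches 4 and 2. Region and batch therefore cannot be told apart, nor can culture 38 against cultures 41 and 42 be told apart from batch within a region.

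Imprinting starts from DNA methylation that the egg or the sperm leaves at an imprinting control region, and the KRAB zinc finger protein ZFP57 with its cofactor TRIM28 and the maintenance methyltransferase DNMT1 keeps that mark in the embryo. Most imprinted loci carry genes of both kinds, and a long noncoding RNA expressed from one copy often accompanies silencing of its neighbours. At a smaller set of loci, of which Slc38a4 is one, the maternal copy of the early mouse embryo is silenced through trimethylation of histone H3 lysine 27 (H3K27me3), the mark that H3.3 K27M lowers. No H3K27me3 value entered the results below, and a part of this mark in the levels of any gene was not tested. Many imprinted genes act on growth, and several are known for high expression in embryonic progenitors.

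Promoter sequences are shown for 4 paternally expressed genes whose levels the results below turn on. Each run holds the 250 bases before and 50 bases after a RefSeq transcript start (GRCm38.p6), 5′ to 3′ on the gene's strand, with CpG dinucleotides, the sites of DNA methylation in mammals, in capitals. Magel2 (chr7:62376729-62377028, plus strand) and Ndn (chr7:62348027-62348326, plus strand) are neighbours in the Prader-Willi/Angelman locus, Peg3 (chr7:6730370-6730669, minus strand) starts beside the divergent gene Usp29, and for Slc38a4 (chr15:97055907-97056206, minus strand) the start of its most counted transcript is used.
Magel2: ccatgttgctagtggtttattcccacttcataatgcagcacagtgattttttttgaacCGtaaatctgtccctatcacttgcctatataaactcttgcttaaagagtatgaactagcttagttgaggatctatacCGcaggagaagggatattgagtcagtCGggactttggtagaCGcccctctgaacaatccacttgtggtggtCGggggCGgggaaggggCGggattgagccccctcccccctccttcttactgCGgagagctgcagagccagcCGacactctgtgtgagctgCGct
Ndn: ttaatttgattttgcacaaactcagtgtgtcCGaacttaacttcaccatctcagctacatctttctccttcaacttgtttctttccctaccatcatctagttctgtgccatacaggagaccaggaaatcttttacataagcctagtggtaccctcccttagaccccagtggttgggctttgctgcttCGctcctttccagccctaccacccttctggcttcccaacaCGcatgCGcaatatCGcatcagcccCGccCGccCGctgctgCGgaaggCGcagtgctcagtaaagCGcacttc
Peg3: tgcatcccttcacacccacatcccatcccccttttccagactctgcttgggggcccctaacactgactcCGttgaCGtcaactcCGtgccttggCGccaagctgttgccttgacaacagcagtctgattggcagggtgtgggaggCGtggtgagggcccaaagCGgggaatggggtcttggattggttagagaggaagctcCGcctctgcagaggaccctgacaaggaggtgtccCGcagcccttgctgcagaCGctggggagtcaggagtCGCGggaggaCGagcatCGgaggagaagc
Slc38a4: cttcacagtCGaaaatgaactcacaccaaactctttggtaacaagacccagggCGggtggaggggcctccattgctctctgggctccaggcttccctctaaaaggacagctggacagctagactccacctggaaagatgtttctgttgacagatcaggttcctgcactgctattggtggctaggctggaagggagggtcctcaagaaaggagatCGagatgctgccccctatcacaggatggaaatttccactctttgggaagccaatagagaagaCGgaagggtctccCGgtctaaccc
These windows held 10 CpG dinucleotides for Magel2, 11 for Ndn, 13 for Peg3 and 5 for Slc38a4, and the median over 32851 mouse promoters was 7.00. Of all promoters, 43.5%, 41.4%, 37.9% and 62.0% had at least as many as those of Magel2, Ndn, Peg3 and Slc38a4. The hexamer that ZFP57 recognises (TGCCGC, searched on both strands) was in 11.6% of all promoters and had 0 matches in each of these 4 windows, which says nothing of the rest of each locus. The Peg3 and Usp29 windows shared 263 bases, so they are largely 1 sequence read on opposite strands. A promoter was found for 35 of the 40 genes.

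The effect of K27M was tested in each region on each day with edgeR's quasi-likelihood test on counts summed over the wells of a culture line, so that n is 3 cultures per group, with culture as a block. In the brainstem, 20 gene-by-day tests of 152 passed an adjusted p under 0.05, all 20 with higher levels in K27M, in 15 genes. In the telencephalon 18 of 152 passed, 17 higher and 1 lower in K27M, in 9 genes. Paternally expressed genes, with 84 of the 152 tests in each region, gave 15 of the 20 brainstem calls, in 10 genes. They gave 17 of the 18 telencephalon calls, in 8 genes, so several genes are counted on more than 1 day. The maternally expressed genes, with 40 tests in each region, gave 4 calls, all at brainstem day 5.

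By day, the number of the 38 genes that rose can be read against the share of all 23006 genes. In the brainstem 2 rose at day 0 (1.08% of all genes higher, 0.235% lower), 2 at day 1 (2.26% higher, 2.09% lower), 5 at day 2 (2.82% higher, 0.965% lower) and 11 at day 5 (7.27% higher, 4.22% lower). In the telencephalon 2 rose at day 0 (0.213% higher, 0.122% lower) and 4 at day 1 (1.74% higher, 2.67% lower). At telencephalon day 2, 8 rose and 1 fell (2.73% higher, 1.86% lower), and with DESeq2's size factors in place of TMM the split over all genes was 535 higher and 631 lower in place of 627 and 428. At telencephalon day 5, 3 rose (1.30% higher, 0.687% lower). The median log2 fold change of the 38 genes was 0.01, 0.06, 0.16 and 0.25 on days 0, 1, 2 and 5 in the brainstem and 0.06, 0.13, 0.18 and 0.21 in the telencephalon, and the median of all genes lay between -0.01 and 0.02.

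**Figure D1:**
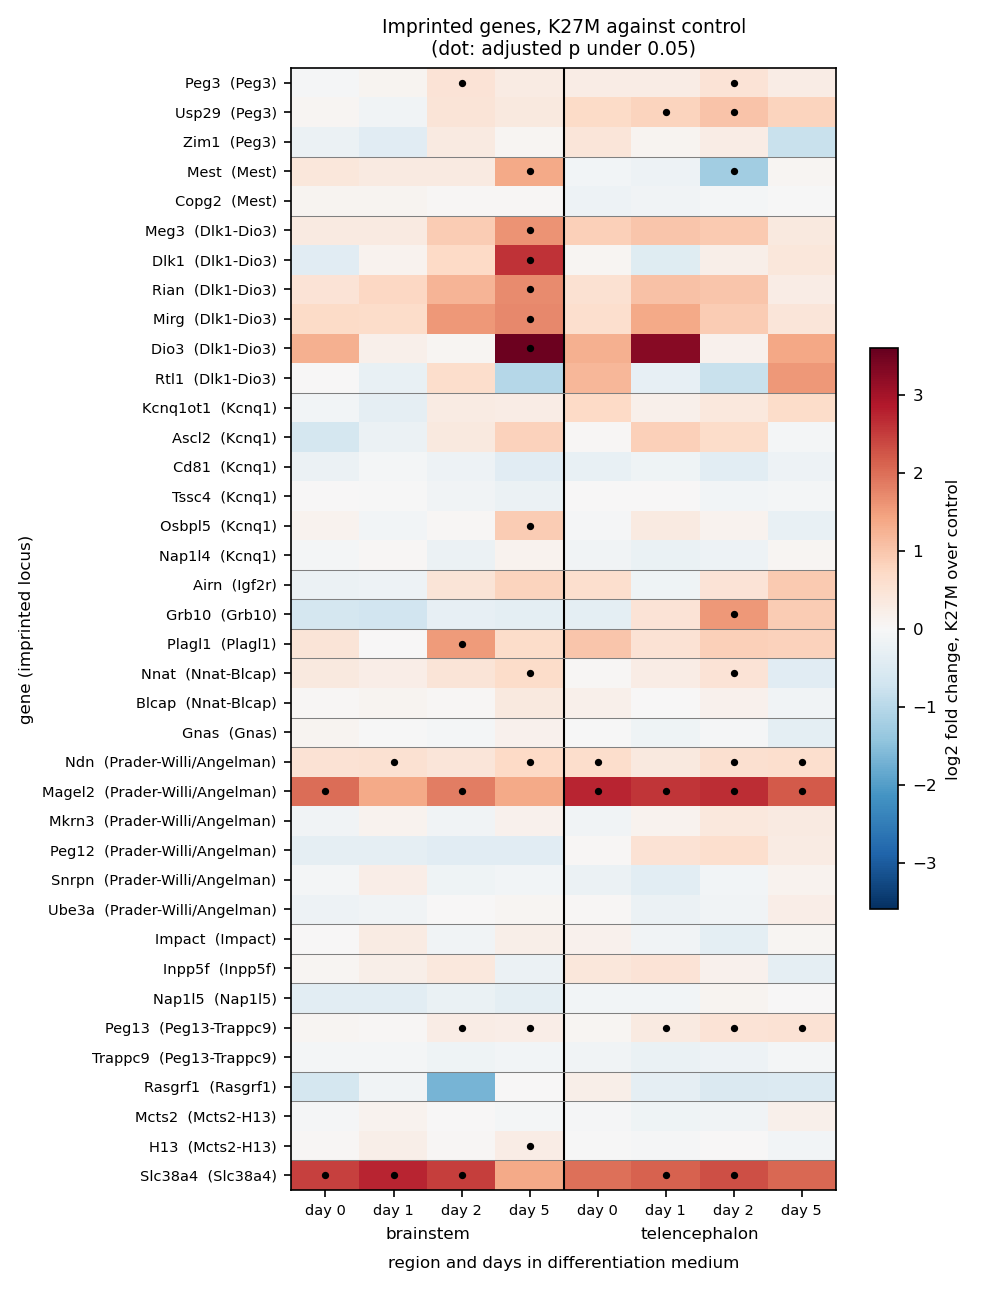
Log2 fold change of K27M over control for the 38 tested imprinted genes (rows, grouped by locus) on each day in each region (columns), with a dot where the adjusted p was under 0.05 (edgeR, 3 cultures a group). Magel2 and Slc38a4 were between 1.36 and 2.74 in all 8 columns, and the Dlk1-Dio3 genes had dots at brainstem day 5 alone.

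These calls rested on few cultures. Leaving out culture 41 ended 20 of the 20 brainstem and 16 of the 18 telencephalon calls, leaving out culture 42 ended 18 and 17, and leaving out culture 38 ended 3 and 6, while the fitted fold changes kept their sign. Within the batch of cultures 41 and 42, that is without culture 38, there were 26 calls in brainstem and 12 in telencephalon, and the batch of culture 38 holds 1 culture per genotype. Passage as a covariate ended 11 of the brainstem calls and 1 of the telencephalon calls. With each region and day fitted alone, so that no spread is shared between groups of other days, 18 of the brainstem and 15 of the telencephalon calls ended.

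In the Prader-Willi/Angelman locus, Magel2 and Ndn rose in K27M OPCs of both regions, while their 4 neighbours on the list gave no call. Magel2 (ENSMUSG00000056972.6, chromosome 7, 62377010 to 62381640, plus strand, GRCm38) encodes a MAGE protein that works with ubiquitin ligases in endosomal recycling. Ndn (ENSMUSG00000033585.5, chromosome 7, 62346569 to 62350262, plus strand), necdin, is a MAGE protein known as a growth suppressor of neurons. Both are expressed from the paternal copy.

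At day 0 in the telencephalon, Magel2 was at 2.28 (lowest), 2.75 (median) and 3.89 (highest) CPM in the K27M wells, against 0.305, 0.390 and 0.575 CPM in the control wells. In the brainstem at day 0 the K27M wells were at 0.803, 1.36 and 1.96 CPM and the control wells at 0.229, 0.315 and 0.632 CPM. Every K27M well was above every control well in both cases, the wells of each group coming from 3 cultures. In the telencephalon the wells also did not overlap at day 1 (K27M 1.85 to 4.42 CPM, control 0.141 to 1.13), day 2 (K27M 1.44 to 2.86, control 0.108 to 0.841) or day 5 (K27M 0.518 to 1.14, control 0.0843 to 0.241). The level is low, under 5 CPM everywhere, but it was above 0 in every library.

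The log2 fold change of Magel2 in the telencephalon was 2.74 ± 0.50 (SE), 2.58 ± 0.49, 2.66 ± 0.51 and 2.21 ± 0.54 on days 0, 1, 2 and 5, with edgeR adjusted p of 0.0057, 0.0034, 0.0027 and 0.023. In the brainstem it was 2.00 ± 0.49 at day 0 (adjusted p = 0.031) and 1.83 ± 0.50 at day 2 (0.033), and 1.36 ± 0.49 at day 1 (0.10) and 1.37 ± 0.53 at day 5 (0.087) did not pass. Brainstem day 2 had wells of both genotypes in one range, because culture 38 differed by 0.28 and cultures 41 and 42 by 3.25 and 3.04 on the log2 scale. Without culture 41 the 6 fold changes that had passed lay between 1.47 and 2.68, without culture 42 between 1.19 and 2.86, and neither set passed (adjusted p 0.086 to 0.66). With passage as a covariate the brainstem values were 1.81 at day 0 (0.14) and 1.74 at day 2 (0.054).

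Ndn is more abundant per transcript length, at 7.90 to 28.3 TPM over the group medians against 0.00979 to 0.387 TPM for Magel2. In the telencephalon it was at 131, 155 and 170 CPM (lowest, median, highest well) in K27M and 86.0, 93.5 and 108 CPM in control at day 0, and at 95.3, 106 and 114 CPM in K27M and 57.5, 66.9 and 84.8 CPM in control at day 5. At brainstem day 5 it was at 112, 139 and 150 CPM in K27M and 75.8, 85.2 and 104 CPM in control. The wells of K27M and control did not overlap in these 3 comparisons, nor at telencephalon day 2 (K27M 145 to 180 CPM, control 92.7 to 127 CPM).

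Ndn rose by 0.64 ± 0.15 on the log2 scale at day 0 (adjusted p = 0.040), 0.59 ± 0.15 at day 2 (0.018) and 0.61 ± 0.15 at day 5 (0.020) in the telencephalon, with 0.35 at day 1 (0.16). In the brainstem it rose by 0.56 ± 0.15 at day 1 (0.023) and 0.71 ± 0.15 at day 5 (0.0017), with 0.51 at day 0 (0.078) and 0.44 at day 2 (0.089). In the brainstem culture 38 differed by 0.04, 0.02, 0.13 and 0.34 on days 0, 1, 2 and 5, against 0.55 to 0.95 in cultures 41 and 42. Leaving out culture 41 or 42 ended all 5 calls, with fold changes of 0.44 to 0.70, and leaving out culture 38 ended that of telencephalon day 0 (0.59, adjusted p = 0.12).

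The 4 neighbours did not pass on any day in either region. They are Mkrn3, a RING-finger protein that restrains puberty (-0.14 to 0.37), Peg12, which binds the kinase GSK3 (-0.41 to 0.61), Snrpn, a core spliceosome protein (-0.38 to 0.25), and Ube3a, a ubiquitin ligase expressed from the maternal copy in neurons (-0.20 to 0.23). Snrpn shares its transcript with Snurf, and the count does not separate them.

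**Figure D2:**
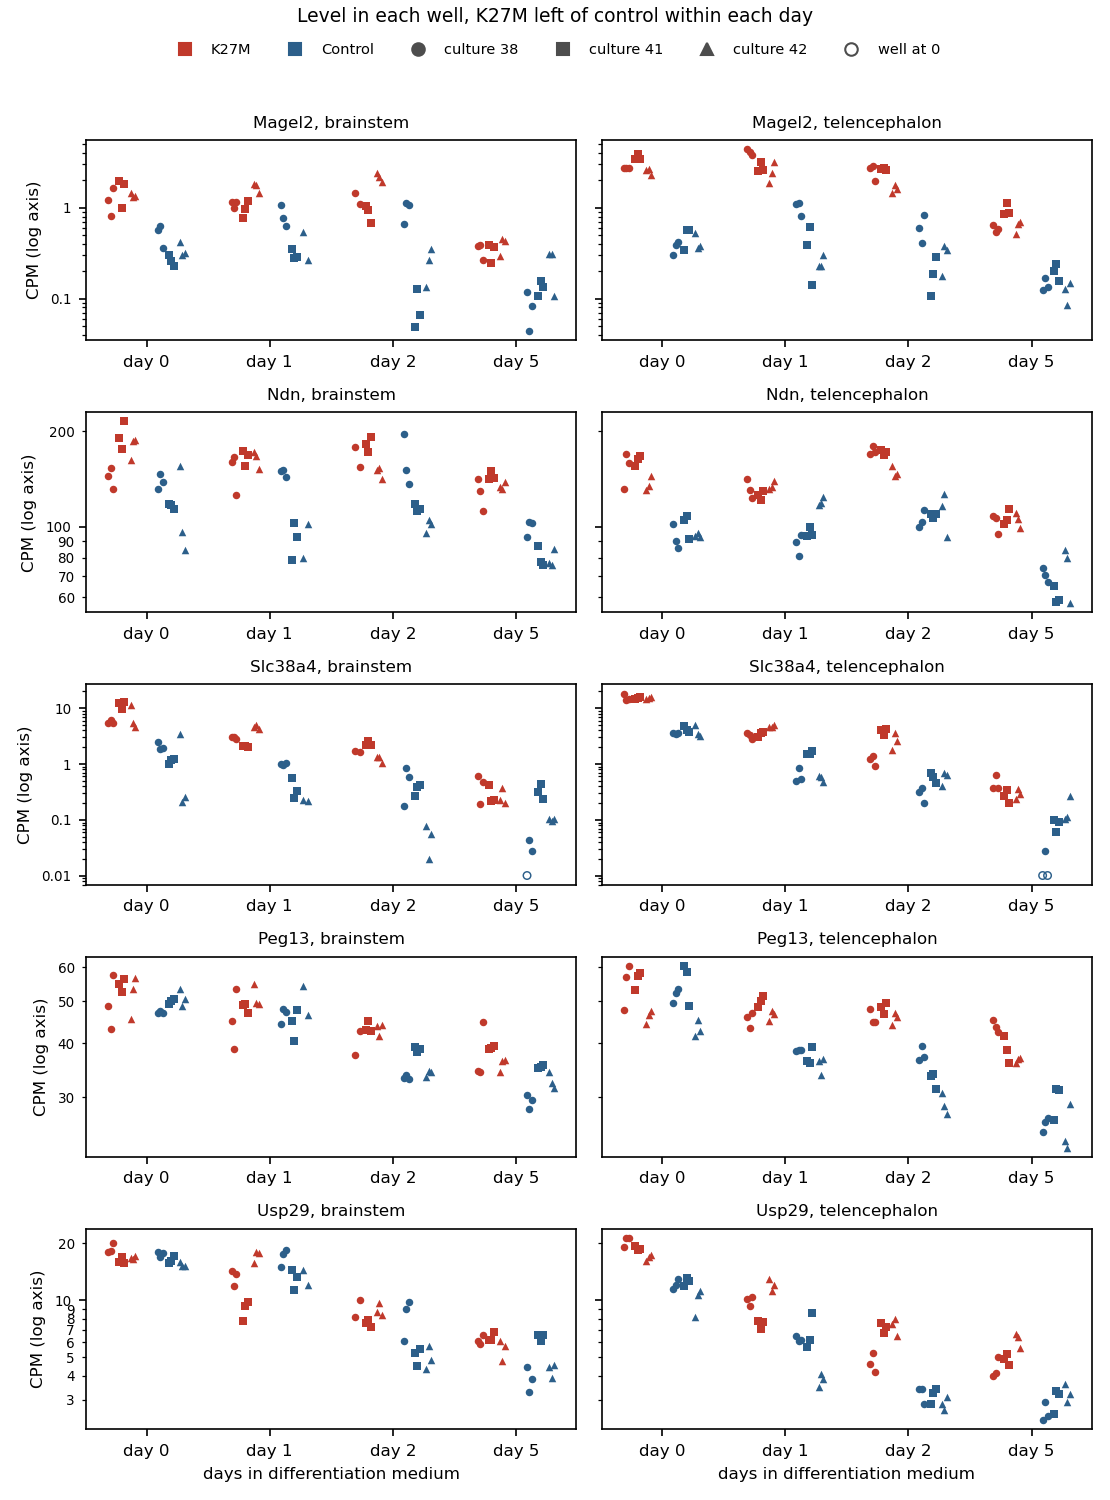
Level (CPM, log axis) of 5 imprinted genes in each well on each day, with brainstem left and telencephalon right, K27M wells in red left of control wells in blue, and a marker shape for each culture; open symbols at the foot of a panel are wells at 0. Magel2 and Slc38a4 K27M wells lie above the control wells in telencephalon on days 0, 1 and 2, and on brainstem days 1, 2 and 5 the Ndn control wells of culture 38 (137 to 196 CPM at day 2) lie above those of cultures 41 and 42 (95.6 to 118 CPM at day 2).

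Slc38a4 (ENSMUSG00000022464.14, chromosome 15, 96994820 to 97055956, minus strand) encodes a sodium-coupled transporter of neutral amino acids and is expressed from the paternal copy. Its level fell with differentiation in both regions, and K27M cells started from a higher level in both regions. At day 0 its wells were at 4.52, 6.06 and 12.7 CPM in brainstem K27M against 0.211, 1.25 and 3.45 CPM in brainstem control. Telencephalon wells of day 0 were at 14, 15.2 and 18.2 CPM in K27M against 3.14, 3.64 and 5.02 CPM in control. On days 0, 1 and 2 no K27M well of either region was as low as a control well.

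At day 1 Slc38a4 wells spanned 2.03 to 5.05 CPM in brainstem K27M and 0.222 to 1.04 CPM in brainstem control, and 2.82 to 4.96 CPM in telencephalon K27M and 0.480 to 1.71 CPM in telencephalon control. At day 2 they spanned 1.06 to 2.57 CPM in brainstem K27M and 0.0203 to 0.850 CPM in brainstem control, and 0.941 to 4.16 CPM in telencephalon K27M and 0.204 to 0.691 CPM in telencephalon control. By day 5 the ranges met. Brainstem wells were then at 0.194 to 0.612 CPM in K27M and 0 to 0.436 CPM in control, and telencephalon wells at 0.197 to 0.635 CPM in K27M and 0 to 0.271 CPM in control.

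The log2 fold change of Slc38a4 in the brainstem was 2.46 ± 0.60 (adjusted p = 0.030), 2.74 ± 0.63 (0.0096) and 2.49 ± 0.63 (0.021) on days 0, 1 and 2, and 1.36 ± 0.69 (0.20) at day 5. In the telencephalon it was 2.11 ± 0.60 at day 1 (0.041) and 2.32 ± 0.61 at day 2 (0.027). The telencephalon values of 1.99 ± 0.58 at day 0 (0.14) and 2.06 ± 0.76 at day 5 (0.16) did not pass. The 9 K27M wells and 9 control wells of day 0 did not overlap, but wells of a culture are not separate replicates. Leaving out culture 41 or 42 ended all 5 calls, with fold changes of 1.74 to 2.82. Leaving out culture 38 ended the telencephalon day 1 call (1.98, adjusted p = 0.055).

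Peg13 (ENSMUSG00000106847.1, chromosome 15, 72805600 to 72810324, minus strand) is a paternally expressed noncoding RNA inside an intron of Trappc9, a subunit of the TRAPP trafficking complex that is expressed mainly from the maternal copy in brain. Both run on the minus strand, so stranded reads of unspliced Trappc9 and of Peg13 cannot be told apart there. Peg13 was called in the telencephalon on days 1, 2 and 5 and in the brainstem on days 2 and 5, and a change of the difference across days was not tested. Telencephalon wells of Peg13 were at 44.3, 53.2 and 60.4 CPM in K27M and 41.6, 49.7 and 60.5 CPM in control at day 0. At telencephalon day 5 they were at 36.0, 38.5 and 45.2 CPM in K27M and 22.9, 26.6 and 31.3 CPM in control, without overlap.

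In the telencephalon Peg13 rose by 0.33 ± 0.08 on the log2 scale at day 1 (adjusted p = 0.014), 0.48 ± 0.08 at day 2 (0.00035) and 0.53 ± 0.08 at day 5 (6.0e-05), with 0.06 at day 0 (0.83). The day 5 value passed with any 1 culture left out, and the day 2 value did not pass without culture 42 (0.41, adjusted p = 0.081). With each region and day fitted alone in edgeR, neither passed (0.53, adjusted p = 0.081 at day 5, and 0.49, 0.084 at day 2). The day 1 value did not pass without culture 41 (0.28) or 42 (0.32). In the brainstem it rose by 0.26 ± 0.08 at day 2 (0.045) and 0.24 ± 0.08 at day 5 (0.035), with 0.07 and 0.03 on days 0 and 1. Leaving out any 1 of the 3 cultures ended both brainstem calls, with fold changes of 0.18 to 0.32, as did scaling by DESeq2 size factors (0.26 and 0.20). Trappc9 itself stayed between -0.24 and -0.06 and did not pass.

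At the Peg3 locus the divergent paternal genes Peg3 and Usp29 rose and the maternal gene Zim1 did not pass. Peg3, a zinc finger protein, had day 2 levels of 182, 184 and 206 CPM in brainstem K27M cultures 38, 41 and 42 and 146, 135 and 126 CPM in brainstem control cultures. Telencephalon wells of day 2 spanned 140 to 177 CPM in K27M and 88.3 to 131 CPM in control. Peg3 rose by 0.49 ± 0.13 on the log2 scale in both regions at day 2 (adjusted p = 0.031 in brainstem and 0.030 in telencephalon), and lay between -0.04 and 0.30 on the other days. Leaving out any 1 culture ended both Peg3 calls (0.38 to 0.64, adjusted p 0.066 to 0.32).

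Usp29 (ENSMUSG00000051527.11, chromosome 7, 6730578 to 6967219, plus strand), a ubiquitin-specific peptidase, was called in the telencephalon. At telencephalon day 2 its wells were at 4.20, 6.73 and 7.98 CPM in K27M and 2.63, 3.08 and 3.40 CPM in control, and at day 1 they were at 7.09, 10.2 and 12.9 CPM in K27M and 3.51, 6.09 and 8.56 CPM in control. K27M and control wells were separate at day 2 and overlapped at day 1. The log2 fold change in the telencephalon was 0.69 ± 0.23 at day 0 (adjusted p = 0.21), 0.79 ± 0.23 at day 1 (0.047), 1.03 ± 0.23 at day 2 (0.0094) and 0.79 ± 0.23 at day 5 (0.071). The day 1 call ended without any 1 culture (0.41 without culture 42, 0.88 without culture 38, 1.09 without culture 41), and the day 2 call ended without culture 41 (0.95) or 42 (0.88). Brainstem Usp29 lay between -0.13 and 0.46, with no call, and Zim1, another zinc finger protein, between -0.80 and 0.44 over both regions.

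The Dlk1-Dio3 locus on chromosome 12 encodes 3 proteins from the paternal copy (Dlk1, a transmembrane ligand related to Notch ligands, Rtl1, a retrotransposon-derived protein, and Dio3, the deiodinase that inactivates thyroid hormone) and long noncoding RNAs from the maternal copy (Meg3, Rian, a host of small nucleolar RNAs, and Mirg, a host of microRNAs). At brainstem day 5, 5 of the 6 rose. Meg3 was at 51.5, 109 and 77.7 CPM in K27M cultures 38, 41 and 42, and at 49.3, 6.83 and 25.7 CPM in control cultures. Rian was at 67.0, 106 and 76.6 CPM in K27M and 66.2, 5.62 and 18.6 CPM in control. Culture 38 was alike in both genotypes, and the difference lay in cultures 41 and 42. Counts were summed over wells, so the value of control culture 38 was weighted to its 455 M library. Leaving that library out ended 0 of the brainstem K27M calls. Mirg had the same shape, with 4.88, 8.88 and 4.81 CPM in K27M and 4.39, 0.449 and 1.41 CPM in control. Dlk1 was at 1.06, 3.79 and 2.21 CPM in K27M and 0.385, 0.343 and 0.209 CPM in control, with no overlap between K27M and control wells. Dio3 was near the limit of detection, at 0.0633, 0.764 and 0.464 CPM in K27M (227 counts over 9 wells) and 0.00611, 0.0704 and 0.0373 CPM in control (16 counts).

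The log2 fold changes at brainstem day 5 were 1.61 ± 0.44 for Meg3 (adjusted p = 0.015), 1.70 ± 0.46 for Rian (0.014), 1.74 ± 0.49 for Mirg (0.019), 2.59 ± 0.41 for Dlk1 (0.00012) and 3.53 ± 0.91 for Dio3 (0.011). With culture 38 as the only source of brainstem day 5, an alternative chosen after seeing the data, they were 0.06, 0.01, 0.15, 1.45 and 3.20, and none passed. Leaving out culture 41 ended all 5 calls (0.77, 0.86, 0.80, 2.22 and 3.63 for Meg3, Rian, Mirg, Dlk1 and Dio3), and leaving out culture 42 ended all but that of Dlk1. Passage as a covariate ended the calls of Meg3 (1.21, adjusted p = 0.077), Mirg (1.24, 0.081) and Dio3 (1.75, 0.48), and those of Rian (1.21, 0.049) and Dlk1 (2.20, 0.0011) passed.

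Astrocyte markers were also low in brainstem control cultures 41 and 42, but not in control culture 38. The 10 markers (Aqp4, Gfap, Aldh1l1, Slc1a3 and others) summed to 1944, 3530 and 2301 CPM in brainstem K27M cultures 38, 41 and 42 at day 5 and to 3237, 525 and 680 CPM in brainstem control cultures, and none of the 10 was at 0. Oligodendrocyte markers (8 genes) summed to 31922, 30539 and 34922 CPM in brainstem K27M and 53862, 52912 and 42174 CPM in brainstem control. The part of either in the levels of imprinted genes was not tested. In bulk RNA, fewer cells of a type and less RNA per cell cannot be told apart.

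In the telencephalon at day 5, astrocyte markers summed to 944, 3313 and 6317 CPM in K27M and 7983, 3523 and 13774 CPM in control. Meg3 there was at 13.2, 35.6 and 69.3 CPM in K27M and 25.2, 19.8 and 43.2 CPM in control. None of the 6 Dlk1-Dio3 genes passed in the telencephalon on any day. Meg3 had log2 fold changes of 0.86, 0.99, 0.95 and 0.35 on days 0, 1, 2 and 5 (adjusted p 0.18 to 0.79), with 16.1, 21.4 and 20.2 CPM in the K27M cultures and 9.38, 12.1 and 10.1 CPM in the control cultures at day 0. Rtl1, with 920 counts in all libraries, lay between -1.03 and 1.57 over both regions and did not pass.

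**Figure D3:**
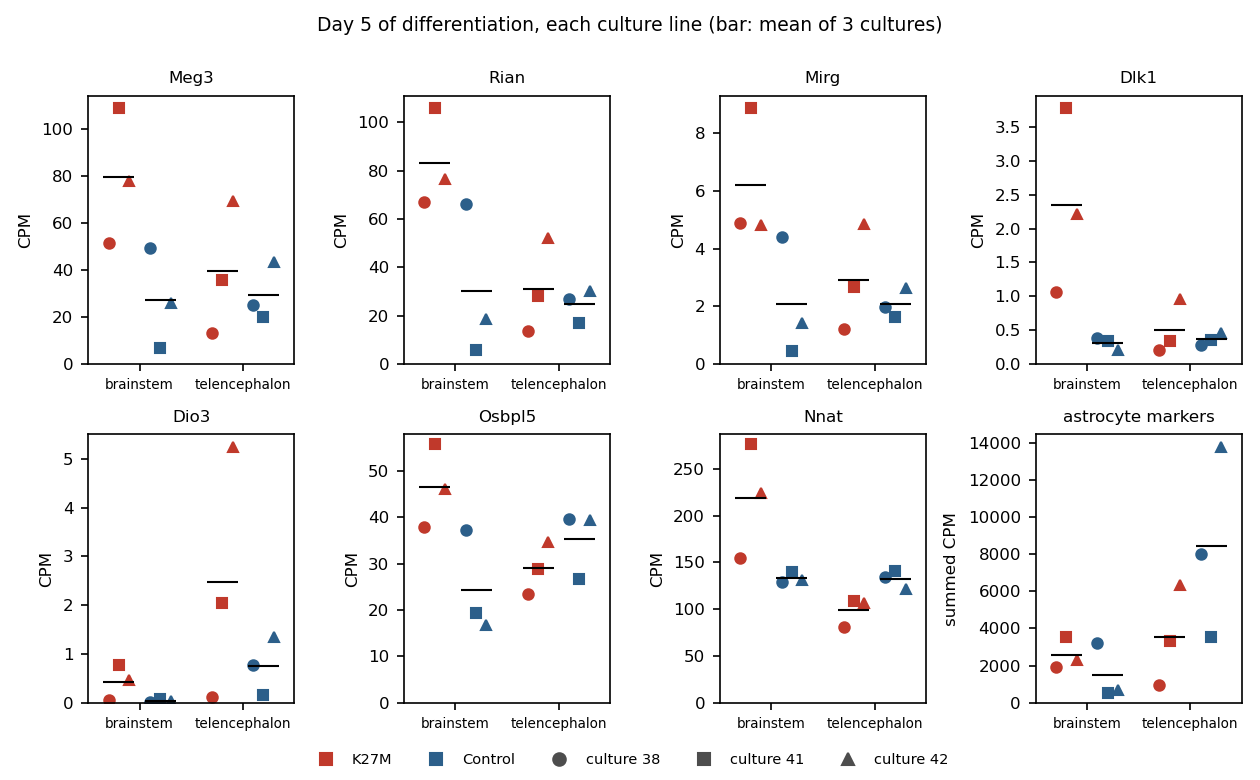
Level at day 5 (CPM) in each culture line, K27M in red left of control in blue, for 5 genes of the Dlk1-Dio3 locus, Osbpl5 and Nnat, with the summed CPM of 10 astrocyte markers in the last panel; bars are means of 3 cultures. In the brainstem, control cultures 41 and 42 are low for Meg3, Rian, Mirg, Osbpl5 and the astrocyte markers. K27M and control culture 38 are near each other for these 4 genes, while for the astrocyte markers K27M culture 38 (1944 CPM) is below control culture 38 (3237 CPM).

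At the Kcnq1 locus, Osbpl5, a lipid transfer protein, rose at brainstem day 5 by 0.90 ± 0.21 on the log2 scale (adjusted p = 0.0044). It was at 37.8, 55.9 and 46.2 CPM in K27M cultures 38, 41 and 42 and 37.2, 19.3 and 16.7 CPM in control cultures, and the difference was 0.02 with culture 38 alone. It did not pass without culture 41 (0.61) or 42 (0.67). The other 5 tested genes gave no call in either region. They are Kcnq1ot1, the paternal noncoding RNA that silences the domain (-0.32 to 0.73), Ascl2, a basic helix-loop-helix factor (-0.63 to 0.86), the tetraspanin Cd81 (-0.41 to -0.07), the splicing chaperone Tssc4 (-0.22 to 0.01) and the histone chaperone Nap1l4 (-0.24 to 0.12).

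Calls also came from 5 further loci. Plagl1, a paternally expressed zinc finger transcription factor, rose at brainstem day 2 by 1.54 ± 0.33 (adjusted p = 0.0057; 1.1 without culture 41, 0.22), at 1.39, 2.47 and 0.991 CPM in K27M cultures and 0.619, 0.557 and 0.490 CPM in control cultures. It was higher in K27M on all days but brainstem day 1 (0.00), with no other call. Grb10, an adaptor that inhibits insulin receptor signalling, is expressed from the maternal copy in most tissues and from the paternal copy in neurons. It rose at telencephalon day 2 by 1.55 ± 0.37 (0.014), at 3.82, 7.61 and 7.50 CPM in K27M cultures and 1.60, 2.39 and 2.41 CPM in control cultures, and leaving out any 1 culture ended the call (1.49 to 1.63). Brainstem Grb10 lay between -0.70 and -0.29 with no call.

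Mest, a paternally expressed hydrolase of mesodermal and neural progenitors, was the only gene called in both directions. It rose at brainstem day 5 by 1.36 ± 0.36 (adjusted p = 0.012), at 25.2, 37.2 and 31.1 CPM in K27M cultures and 13.3, 12.3 and 10.1 CPM in control cultures. It fell at telencephalon day 2 by 1.26 on the log2 scale (0.040), at 11.5, 20.2 and 30.4 CPM in K27M cultures and 49.5, 18.1 and 80.7 CPM in control cultures, where culture 41 went the other way. Leaving out culture 41 or 42 ended both Mest calls (1.24 either way in brainstem, -1.71 and -1.14 in telencephalon), leaving out culture 38 ended the telencephalon call (-0.85, adjusted p = 0.28), and passage as a covariate ended the brainstem call (0.89, 0.16). Its neighbour Copg2, a coatomer subunit, lay between -0.19 and 0.11.

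Nnat, a paternally expressed membrane protein of neuronal and neuroendocrine cells that lies in an intron of Blcap on the opposite strand, rose at brainstem day 5 by 0.67 ± 0.14 (adjusted p = 0.0020) and at telencephalon day 2 by 0.48 ± 0.14 (0.041). At brainstem day 5 it was at 155, 277 and 224 CPM in K27M cultures and 129, 140 and 131 CPM in control cultures. H13, a signal peptide peptidase, rose at brainstem day 5 by 0.26 ± 0.09 (0.047), at 59.7, 76.3 and 77.2 CPM in K27M and 62.4, 56.6 and 57.4 CPM in control, so culture 38 went the other way. Without culture 41 or 42 Nnat (0.49 and 0.61 in brainstem, 0.47 and 0.41 in telencephalon) and H13 (0.17 and 0.16) did not pass. Mcts2, a retrogene in an intron of H13 on the same strand, which shares reads with its parent gene Mcts1, lay between -0.16 and 0.18.

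The remaining 7 genes had no K27M call in either region. Blcap lay between -0.13 and 0.34, Gnas, the stimulatory G protein alpha subunit, between -0.36 and 0.16, and Airn, the antisense RNA that silences Igf2r, between -0.21 and 0.93. Impact, an inhibitor of the kinase GCN2, lay between -0.34 and 0.29, the inositol phosphatase Inpp5f between -0.32 and 0.49, and Rasgrf1, a Ras exchange factor, between -1.68 and 0.22. Nap1l5, a nucleosome assembly protein in an intron of Herc3 on the opposite strand, was lower in brainstem K27M on every day (-0.39, -0.37, -0.25 and -0.35) without passing (adjusted p 0.051 to 0.27).

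Whether the K27M effect differed between the regions was tested as an interaction, brainstem effect minus telencephalon effect. Of all genes, 0.00435% passed at day 0, 9.20% at day 1, 0.878% at day 2 and 4.82% at day 5. Of the 38 genes, 1 passed at day 1 and 4 at day 5. Snrpn differed at day 1 by 0.63 ± 0.18 (adjusted p = 0.028), at 81.5, 124 and 73.5 CPM in brainstem K27M and 57.6, 84.1 and 92.0 CPM in brainstem control, and 101, 80.5 and 84.6 CPM in telencephalon K27M and 118, 98.6 and 127 CPM in telencephalon control.

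At day 5 the differences were 2.18 ± 0.58 for Dlk1 (adjusted p = 0.028), 1.18 ± 0.29 for Osbpl5 (0.019), 1.08 ± 0.20 for Nnat (0.0042) and 0.52 ± 0.15 for Gnas (0.047). Telencephalon Nnat at day 5 was at 81.2, 109 and 107 CPM in K27M cultures and 134, 141 and 122 CPM in control cultures, a log2 fold change of -0.41 that did not pass by itself (0.13). Gnas at day 5 was at 234, 380 and 315 CPM in brainstem K27M against 272, 288 and 255 CPM in brainstem control, and at 288, 354 and 364 CPM in telencephalon K27M against 429, 365 and 503 CPM in telencephalon control. Without culture 41 none of the 5 passed, without culture 42 only that of Snrpn did, and with culture 38 alone at brainstem day 5 the 4 values of that day were 1.05, 0.30, 0.67 and 0.14. Magel2, Slc38a4, Ndn, Peg13 and Usp29 had no interaction call.

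Differentiation itself moved most of these genes. Day 5 against day 0, 114 of 152 tests passed over the 4 combinations of region and genotype, 42 higher and 72 lower at day 5, in 35 genes. Paternally expressed genes gave 18 calls higher and 56 lower in 84 tests, and maternally expressed genes 19 higher and 5 lower in 40 tests. The Kcnq1 locus alone gave 12 calls higher and 2 lower, and a gene can be counted in each of the 4 combinations. In brainstem K27M 12 rose and 16 fell (29.9% and 25.1% of all genes), in brainstem control 9 and 19 (33.5% and 28.5%), in telencephalon K27M 10 and 18 (33.6% and 27.6%) and in telencephalon control 11 and 19 (33.0% and 27%). The 4 combinations share their scaling but no library.

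Slc38a4 had the steepest fall, with log2 fold changes of -4.70 in brainstem K27M, -3.61 in brainstem control, -5.47 in telencephalon K27M and -5.55 in telencephalon control. Peg12 (-2.93 to -2.38), Grb10 (-3.68 to -2.27), Mest (-2.74 to -1.78), Rasgrf1 (-3.06 to -1.55), Inpp5f (-2.51 to -1.77), Usp29 (-2.0 to -1.54) and Airn (-2.38 to -1.37) fell in all 4 combinations. Magel2 (-2.09 to -1.40), Nnat (-1.64 to -0.71), Peg3 (-0.97 to -0.51), Peg13 (-0.93 to -0.45) and Ndn (-0.56 to -0.36) also fell in all 4. All but Grb10 and Inpp5f of these 13 genes are classed as paternally expressed, as are 21 of the 38 tested genes. The 8 genes called higher in K27M at telencephalon day 2 are all among the 13. Oligodendrocyte markers then summed to 17795, 13307 and 10413 CPM in telencephalon K27M cultures 38, 41 and 42. Control cultures were at 20536, 22255 and 22167 CPM. The study's differentiation index, from estimated cell type proportions, was lower in telencephalon K27M cultures at 1 and 2 days. A part of differentiation stage in K27M levels was not tested.

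Genes that rose in all 4 combinations were Cd81 (1.55 to 1.88), Plagl1 (1.42 to 1.98), Osbpl5 (0.91 to 1.66), Impact (0.95 to 1.34), Snrpn (0.45 to 0.85), Trappc9 (0.59 to 0.74) and Copg2 (0.33 to 0.52). Of these, Plagl1, Impact and Snrpn are classed as paternally expressed. Cd81 reached 844, 822 and 927 CPM in brainstem K27M cultures at day 5, against 263, 316 and 312 CPM at day 0. Dio3 rose in 3 combinations, and at telencephalon day 5 it was at 0.117, 2.04 and 5.24 CPM in K27M cultures and 0.772, 0.153 and 1.35 CPM in control cultures, against 5 and 2 counts over all wells of K27M and control at day 0. Its brainstem control value (2.75, adjusted p = 0.12) did not pass, with 16 counts at day 5 and 2 at day 0.

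Dlk1 passed in 3 combinations and not in brainstem K27M. In brainstem K27M it was at 1.06, 3.79 and 2.21 CPM at day 5 and 1.13, 3.36 and 2.06 CPM at day 0, a log2 fold change of 0.07 (adjusted p = 0.89). In brainstem control it was at 0.385, 0.343 and 0.209 CPM at day 5 and 1.30, 3.92 and 3.36 CPM at day 0, a log2 fold change of -2.92 (4.4e-07). The contrast between these courses was not tested on its own. In the telencephalon it fell in K27M (-1.97) and in control (-2.30). Rtl1 (-2.91 to -1.52), Zim1 (-1.50 to -0.16), Mkrn3 (-0.94 to -0.12) and Nap1l5 (-0.34 to -0.20) each fell in 3 of the 4 combinations, and Tssc4 (0.32 to 0.55) and Mcts2 (0.04 to 0.38) rose in 3. Meg3 rose in brainstem K27M (2.19) and telencephalon control (1.43), Rian (1.28) and Ascl2 (0.80) in brainstem K27M, and Gnas (0.46) in telencephalon control. Blcap and Nap1l4 fell in 2 combinations and Ube3a in 1, all by less than 0.5 on the log2 scale. Kcnq1ot1, Mirg and H13 gave no call in any combination.

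**Figure D4:**
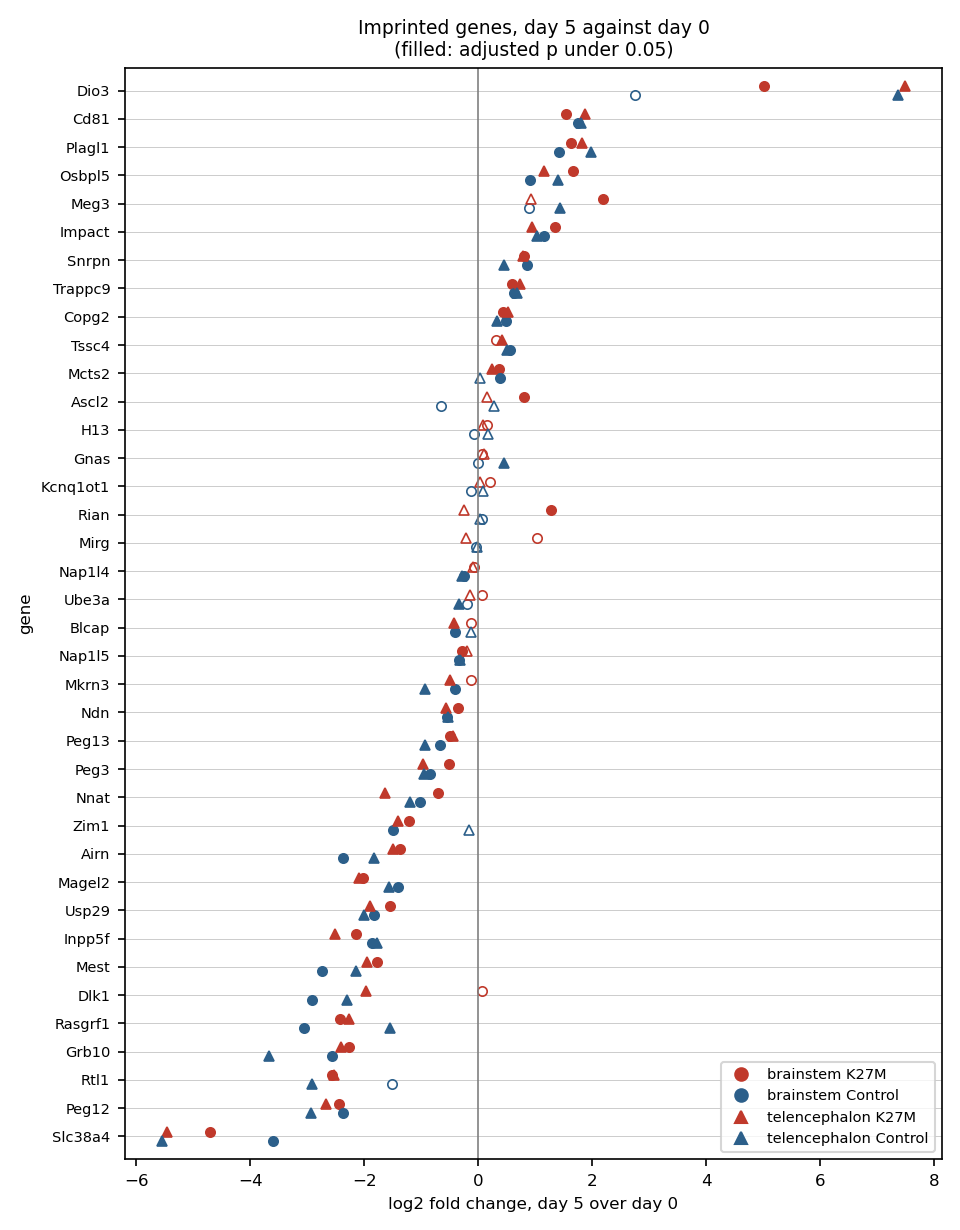
Log2 fold change of day 5 over day 0 for the 38 tested imprinted genes (rows, ordered by their median), with brainstem as circles, telencephalon as triangles, K27M in red and control in blue; filled symbols have an adjusted p under 0.05 (edgeR, 3 cultures a group). Slc38a4 is at the foot between -5.55 and -3.61, and Dlk1 in brainstem K27M (0.07) stands away from its 3 other values.

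Between control cultures, brainstem against telencephalon was tested on each day without a culture block. The regions use the same culture numbers, and a link between same-numbered cultures was not examined here or in the interaction. The shares of all genes higher and lower in brainstem were 1.64% and 1.63% at day 0, 8.91% and 8.23% at day 1, 2.36% and 2.91% at day 2 and 1.61% and 4.99% at day 5. Of the 38 genes, 1 was lower in brainstem at day 0, 4 were higher and 2 lower at day 1, 1 was higher and 1 lower at day 2, and 1 was higher and 4 lower at day 5. Mest was lower in brainstem at day 0 (-1.45 ± 0.41), day 2 (-2.51 ± 0.43) and day 5 (-2.13 ± 0.42). At day 0 it was at 74.5, 78.4 and 88.1 CPM in brainstem control cultures and 201, 199 and 260 CPM in telencephalon control cultures. Usp29 was higher in brainstem at days 1 (1.38) and 2 (1.04), Nap1l5 at days 1 (0.35) and 5 (0.41), and Peg3 (0.54) and Peg13 (0.37) at day 1. Dio3 (-4.60 ± 1.1), Gnas (-0.67) and H13 (-0.43) were lower at day 5, and Snrpn (-0.56) and Impact (-0.55) at day 1.

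Per transcript length, in TPM (the authors' length-corrected transcript share, medians of the wells of each group), Cd81 was the most abundant of the 40 genes at 115 to 333 TPM over the 16 groups, and Nnat (47.6 to 221 TPM) and Gnas (68.7 to 134 TPM) came next with ranges that overlap. Magel2 at 0.00979 to 0.387 TPM, Dio3 at 0 to 0.579 TPM and Rtl1 at up to 0.0344 TPM were among the lowest. Genes called higher in K27M lay across this range, with Nnat at its upper end, Mest (2.15 to 51.8 TPM), Ndn (7.90 to 28.3 TPM), Peg3 (6.24 to 28.5 TPM) and H13 (12.5 to 21.2 TPM) between, and Magel2 and Dio3 at its lower end.

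The machinery that keeps imprints was read from a list of 18 genes, 16 of them tested. Under K27M, Zfp57 rose in the telencephalon by 1.31 ± 0.28 on the log2 scale at day 1 (adjusted p = 0.0074) and 1.59 ± 0.28 at day 2 (0.0014), at 6.72, 12 and 11.3 CPM in K27M cultures and 3.45, 3.10 and 3.31 CPM in control cultures at day 2. Dnmt3a, a de novo methyltransferase, fell at day 2 by 0.46 on the log2 scale in brainstem (0.046) and by 0.47 in telencephalon (0.038), and Arid4a, a chromatin protein, fell at brainstem day 1 by 0.38 (0.043). These were the 5 calls of the list over the 8 K27M comparisons: 1 of 16 genes higher at telencephalon day 1 (1.74% of all genes) and 1 at telencephalon day 2 (2.73%), and 1 lower at brainstem day 1 (2.09% of all genes), brainstem day 2 (0.965%) and telencephalon day 2 (1.86%). With differentiation 9 to 11 of the 16 fell and 3 or 4 rose in each combination, where 25.1% to 28.5% of all genes fell and 29.9% to 33.6% rose. Among those that fell were the maintenance methyltransferase Dnmt1 (-2.52 to -2.19) and its recruiter Uhrf1 (-4.01 to -2.85).

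Other imprinted genes of the same loci, 14 of 17 tested, gave 6 K27M calls higher and 1 lower over the 8 comparisons. At brainstem day 5, 3 of the 14 rose (7.27% of all genes) and 1 fell (4.22%), and 1 rose at brainstem day 1 (2.26%), brainstem day 2 (2.82%) and telencephalon day 5 (1.30%). Cdkn1c, the maternally expressed cell cycle inhibitor of the Kcnq1 locus, rose at day 5 in brainstem (1.86 ± 0.46, adjusted p = 0.0086) and telencephalon (2.01 ± 0.47, 0.017), at 48.6, 51.2 and 42.8 CPM in brainstem K27M against 9.98, 8.59 and 24.3 CPM in brainstem control, and 22.3, 19.7 and 15.4 CPM in telencephalon K27M against 4.08, 5.56 and 4.27 CPM in telencephalon control. Begain of the Dlk1-Dio3 locus (1.53) and Cobl beside Grb10 (1.33) rose at brainstem day 5, Ddc at brainstem day 1 (3.17) and Zfp264 at brainstem day 2 (4.39), and Tspan32 fell by 1.39 at brainstem day 5.

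For genes with transcripts that differ in imprinting, the share of the gene's counts per transcript was read as a description, with no test. Inpp5f-201, from the gene's upstream start, averaged 65.7% of the counts in brainstem K27M at day 5 and 46.3% at day 0. Inpp5f-203, which starts inside the gene at position 128688489 of chromosome 7, held 16.8%, 16.3% and 16.4% of the counts in brainstem K27M cultures at day 5 and 25.4%, 31.7% and 33.1% at day 0. In telencephalon control it held 4.53%, 10.3% and 7.97% at day 5 and 38.7%, 41.5% and 43.9% at day 0. In all 4 combinations the share was lower at day 5 in every culture. Gnas-208, the most counted Gnas transcript, averaged 81.8% to 91.1% of counts at days 0 and 5, and Mest-211 94.6% to 97.2%. Slc38a4-201, whose promoter is printed above, averaged 85.4% to 95.2% at day 0.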

How the data were processed

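RNA was measured in 142 wells of cultured mouse OPCs (12 culture lines). The authors made stranded total RNA libraries and quantified them with Salmon (1.10.1) against mm10 with GENCODE M25, with corrections for sequence and GC bias. The deposited values are estimated counts (expected counts) per transcript, with TPM and an effective length that the authors' run of Salmon also gave (signal in bases). Transcripts were matched to GENCODE M21 (GRCm38): 139821 of 141084 matched, and the unmatched ones held 0.252% to 0.377% of counts.

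Estimated counts were summed per gene and over the wells of a culture line and day, and rounded to whole numbers, giving 48 sums. They were tested with edgeR (4.0.16, R 4.3.3): TMM, filterByExpr over the 16 groups, the quasi-likelihood test, culture within region as a block, and Benjamini-Hochberg adjustment over 23006 genes per comparison. The brainstem against telencephalon test had no block. The standard error is the log2 fold change divided by the square root of F. CPM are scaled by TMM library sizes, and TPM served only to order genes. The study modelled single wells with DESeq2 and culture, which is an alternative here, since wells of a culture are not separate litters. Same-numbered K27M and control cultures deviated together in 21 of 24 pairs (correlation over 0.1; median 0.20, lowest -0.11), and the block follows the study's methods. P-values measure the spread between cultures of pooled litters (3 per group), pooled over all 48 sums in a single fit. The days of a culture line entered that fit as separate sums.

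All genes on the list are named. Usp29, Ndn, Magel2, Peg13 and Slc38a4 are given in full by a rule: called in one direction on at least 2 days in a region, with one sign in all 3 cultures. The genes and lists were chosen with earlier results of these data known. Each comparison was recomputed under 13 to 15 alternatives, as many as apply to it, among them wells as units, DESeq2 (1.42.0), other scaling, no filter, passage, a length offset and each culture left out. The script's recovery of known changes was tested on simulated data. Allelic expression was not analysed here.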

Additional observations from a re-analysis of the deposited data

Results flagged for a closer look

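In 80 groups of wells of 5 genes, 7 had a lowest or highest well far from the others by Dixon's criterion. For independent wells, chance alone gives about 1 in 20 groups. The wells of a group came from 3 cultures, so that rate need not hold here. The low ones were Usp29 in telencephalon control day 0 (culture 42, 8.12 CPM, next 10.7), Ndn in brainstem K27M day 1 (culture 38, 126 CPM, next 152) and Peg13 in brainstem K27M day 2 (culture 38, 37.6 CPM, next 41.5). The high ones were Peg13 in brainstem K27M day 5 (culture 38, 44.8 CPM, next 39.5) and Slc38a4 in telencephalon K27M day 0 (culture 38, 18.2 CPM, next 16), telencephalon K27M day 5 (culture 38, 0.635 CPM, next 0.377) and telencephalon control day 5 (culture 42, 0.271 CPM, next 0.112).

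By the interaction in edgeR, brainstem effect minus telencephalon effect on the log2 scale, Dlk1 (2.18), Osbpl5 (1.18), Nnat (1.08) and Gnas (0.52) passed at day 5. Snrpn (0.63) passed at day 1. Of all genes, 4.82% passed at day 5 and 9.20% at day 1. On these days the K27M log2 fold change of Gnas was 0.16 in brainstem and -0.36 in telencephalon. That of Snrpn was 0.25 and -0.38, and neither gene had a K27M call in either region. Each of the 5 was lost without culture 41, with values of 1.65, 1.06, 0.91, 0.53 and 0.53 in the same order.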

How the results depend on the processing

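The main counts of calls were 20 for K27M in brainstem, 18 for K27M in telencephalon, 114 for day 5 against day 0, 14 between the regions and 5 for the difference of the K27M effects. Wells as units gave 57, 68, 65 and 45 for all but the day comparison. With the well number added as a replicate block they were 58, 68, 65 and 45. DESeq2 on wells with a fold threshold of 1.1 gave 32, 40, 34 and 21, and DESeq2 on culture sums gave 23 between the regions and 9 for the difference. With no replicate block for culture the counts were 13 in brainstem, 10 in telencephalon and 1 for the difference. Passage as a covariate gave 10 in brainstem, 4 between the regions and 3 for the difference. No filter on low counts gave 8 between the regions and 3 for the difference. Each region and day fitted alone gave 3 in brainstem and 6 in telencephalon. Leaving out 1 culture gave 0 to 26 in brainstem, 1 to 12 in telencephalon, 99 to 108 for the day comparison, 2 to 16 between the regions and 0 to 9 for the difference. With culture 38 alone at brainstem day 5, chosen after seeing the data, the counts were 11 in brainstem, 7 between the regions and 2 for the difference, and H13 at brainstem day 5 was -0.07. The day comparison stayed within 99 to 124 calls under every alternative run. Of the 43 K27M and difference calls, 0 passed under every alternative, and none changed sign but H13. The cause of these changes was not tested, beyond the smaller number of cultures where one is left out.

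Limits are 3 cultures a group, batches that go with region and split culture 38 from the others, a passage gap in brainstem, and reads that Peg13 and Trappc9, Mcts2 and H13, and Snrpn and Snurf can share. Depth limited Dio3, Rtl1 and Slc38a4 at day 5, which had few counts.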

Other observations

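Neighbours within a locus were also compared over the 48 culture-line sums, as Pearson's r of log2 CPM after subtracting each group's mean, a description with no test, since lines share libraries, batches and cultures. Over 52 pairs the median r was 0.17 and the range -0.53 to 0.96. The noncoding RNAs Rian and Mirg (0.96), Meg3 and Rian (0.90) and Meg3 and Mirg (0.88) moved most alike, and without brainstem day 5 these were 0.93, 0.84 and 0.81. Peg3 and Usp29, whose promoters overlap, had r = 0.58. Ndn and Magel2, which both rose in K27M, had r = 0.18 within groups, and Kcnq1ot1 and Nap1l4 had the lowest value of -0.53.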
